A study of Mus musculus with 16 samples.

Results

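Rtp4 encodes receptor transporter protein 4, and its level was followed here in mouse peritoneal macrophages and splenic CD4+ T cells after an injection of interferon alpha (IFNα). The gene was found by its symbol, which 1 of the 24922 probe sets of the array carries (probe set 10434778, 1 of 19752 named genes). Rtp4 was chosen by its measured response to IFNα in B10.Q mice, as the gene that responded in both cell types at both times, so those 4 responses are given as a description with no p-value. In GRCm38.p6 the RefSeq gene spans chromosome 16, 23520219 to 23614222, and 1022 bp at the lower-coordinate end of this span overlap Masp1. Which exon or untranslated region the probe set reads was not examined here.

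All mice were male, and IFNα was given under the skin at 10000 units. Macrophages sorted as ICAM2+ F4/80+ from the peritoneal cavity of 6-week-old B6.129S2-Ifnar1tm1Agt/Mmjax mice, which lack Ifnar1 (KO), were taken at 2 h after IFNα or carry titles without IFNα. The same macrophages of B10.Q/J mice, 7-week-old and of a background whose Tyk2 gene is naturally mutated, were taken at 2 h and 5 h after IFNα or after vehicle. T cells sorted as TCRB+ CD4+ CD8- from the spleens of such B10.Q/J mice were taken at the same times. These are 16 arrays in 8 groups of 2, and each vehicle pair joins an array of 2 h with an array of 5 h. No array comes from a mouse with both Ifnar1 and Tyk2 intact, and KO and B10.Q mice also differ in strain and age. For the KO arrays titled without IFNα, the preparation notes nevertheless describe an injection 2 h before. The titles were followed here, and by the notes every KO array would be an IFNα array. A code for spleen appears in 5 of the 6 titles of B10.Q macrophages although the source is the peritoneal cavity, and the title of T-cell vehicle array 1 starts with a code for B cells. Nothing states that the 2 arrays of a group come from separate animals, so the spread behind each p-value is that between these samples and may be technical.

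The receptor transporter proteins are small membrane proteins that help certain G protein-coupled receptors reach the cell surface. Rtp1 and Rtp2 do this for odorant receptors, while Rtp4 is known for the mu and delta opioid receptors. Rtp4 is also an interferon-stimulated gene, and its mouse protein has been reported to bind the kinase TBK1, which activates IRF3 downstream of RNA and DNA sensors. IFNα binds the chains IFNAR1 and IFNAR2, the kinases TYK2 and JAK1 bound to them become active, and the complex ISGF3, which includes STAT2 and IRF9, then switches on interferon-stimulated genes.

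The array medians lay between 7.44 and 7.60 on the log2 scale of intensity, the unit of all levels here. The correlation over genes between the 2 arrays of a group was 0.984 to 0.997. The mean of 9 macrophage markers was 11.44 to 11.92 in KO macrophages and 11.93 to 12.15 in B10.Q macrophages, and that of 8 T cell markers was 11.57 to 11.73 in T cells, against 6.09 to 6.48 in the macrophages. T-cell vehicle array 1 is among those T-cell values. The mean of 2 CD8 markers was 7.77 to 8.07 in T cells, against 6.65 to 6.80 in B10.Q and 6.67 to 6.95 in KO macrophages. Cd8b1 read 8.94 and Cd8a 7.18 in vehicle T cells, against 6.44 and 7.02 in vehicle macrophages. The mean of 3 NK markers was 6.18 to 6.50 in T cells, against 4.93 to 5.15 and 4.99 to 5.18. The macrophage marker mean was 8.41 and 7.52 in T cells at 2 h after IFNα and 7.11 and 7.07 at 5 h, against 7.15 and 7.06 in vehicle T cells. Lyz2, the lysozyme of macrophages, read 12.20 and 10.02 in T cells at 2 h and 7.40 and 7.35 at 5 h, against 7.34 and 7.67 with vehicle. Both T-cell arrays of 2 h thus stand apart in macrophage markers, array 1 most. Rtp4's levels there, its change between times and the count of genes called at 2 h are given below with this signal subtracted too. Other results that rest on these arrays are not. Among KO arrays, the mean of 5 B cell markers was 7.95 and 6.94 with IFNα, against 7.71 and 7.05 in those titled without, and B10.Q macrophages had 6.88 to 6.98.

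Rtp4 was among the brightest genes of B10.Q macrophages after IFNα, and of T cells at 2 h. In macrophages it read 11.63 and 10.96 at 2 h and 11.65 and 11.69 at 5 h after IFNα, against 6.68 and 6.79 with vehicle. As intensities these are 3165 and 1988 at 2 h and 3212 and 3294 at 5 h, against 103 and 110 with vehicle. In such bulk samples, fewer cells with a transcript and less transcript per cell cannot be told apart. All 4 macrophage arrays with IFNα lay far above both vehicle arrays, and at 2 h array 1 was the higher of its pair.

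In T cells Rtp4 read 11.43 and 10.95 at 2 h and 9.95 and 10.03 at 5 h after IFNα, against 7.78 and 7.91 with vehicle. The intensities were 2760 and 1981 at 2 h and 992 and 1045 at 5 h, against 220 and 241 with vehicle. The 3 T-cell groups did not overlap, with 2 h above 5 h and both above vehicle.

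In KO macrophages Rtp4 read 6.19 and 6.36 with IFNα, against 6.48 and 7.24 in those titled without IFNα. The intensities were 73.1 and 82.3 with IFNα, against 89.2 and 152 without. All 4 KO arrays were below their array's median, both IFNα arrays lay below both arrays without, and array 2 without IFNα stood above the other 3.

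Within its own array Rtp4 ranked at percentiles 97.8 and 95.1 of genes in B10.Q macrophages at 2 h and at 97.8 in both arrays of 5 h, against 32.0 and 33.8 with vehicle. In T cells it ranked at percentiles 97.7 and 95.5 at 2 h and 87.1 and 88.2 at 5 h, against 56.1 and 58.1 with vehicle. KO arrays had it at percentiles 18.2 and 24.4 with IFNα, against 25.6 and 42.4 without. A middling rank in vehicle T cells thus stood beside a rank in the lower part of the arrays in vehicle macrophages.

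Ordered by group mean, Rtp4 was highest in B10.Q macrophages at 5 h (11.67 ± 0.026, SD, n = 2), followed by B10.Q macrophages at 2 h (11.29 ± 0.47) and T cells at 2 h (11.19 ± 0.34). T cells at 5 h (9.99 ± 0.053) and T cells with vehicle (7.85 ± 0.095) came next. The lowest were KO macrophages without IFNα (6.86 ± 0.54), B10.Q macrophages with vehicle (6.73 ± 0.074) and KO macrophages with IFNα (6.28 ± 0.12). Of the neighbours in this order, B10.Q macrophages and T cells at 2 h overlapped, with means 0.10 apart, and so did KO macrophages without IFNα and B10.Q macrophages with vehicle, 0.13 apart. Macrophages at 5 h and 2 h did not overlap by a narrow margin, with the lowest array of 5 h at 11.65 and the highest of 2 h at 11.63.

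**Figure D1:**
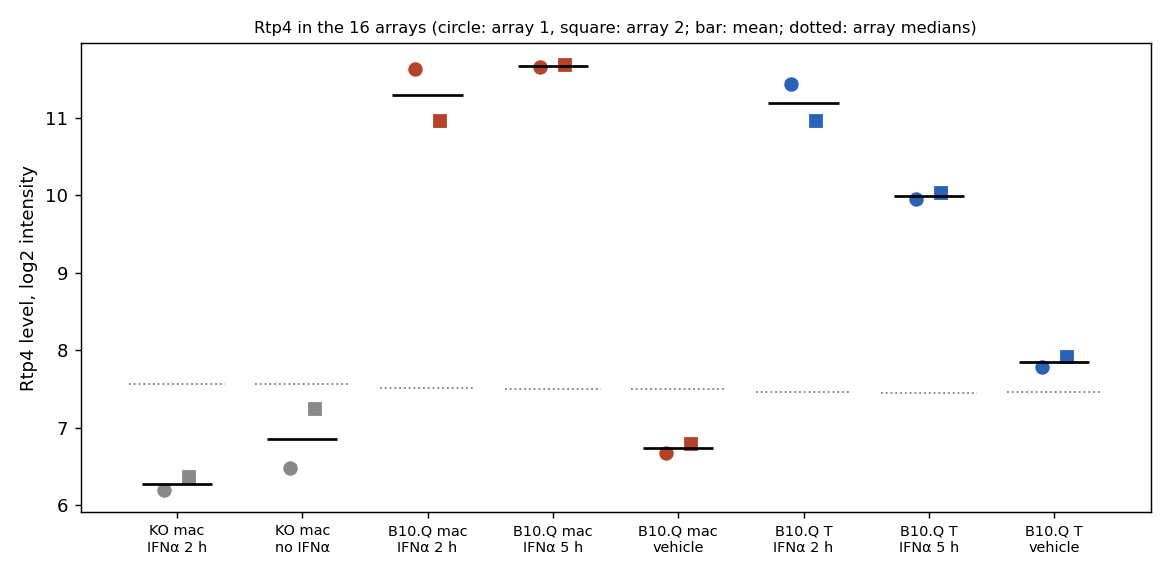
Log2 intensity of Rtp4 (vertical axis) on each of the 16 arrays, in the 8 groups of 2 (horizontal axis); circles are array 1, squares are array 2, bars are group means and dotted lines are the array medians. The 4 B10.Q macrophage arrays with IFNα lie between 10.96 and 11.69 and the 4 KO arrays between 6.19 and 7.24.

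The differences from vehicle, on which Rtp4 was selected, restate these levels. In B10.Q macrophages Rtp4 was 4.56 ± 0.25 log2 above vehicle at 2 h (SE, 95% interval 4.0 to 5.12), or at least 23.6-fold. At 5 h it was 4.93 ± 0.25 above vehicle (4.37 to 5.50), or at least 30.6-fold. The vehicle macrophages lie within the range of 6.35 to 7.44 that the low genes Rtp1 to Rtp3 span, and no value here shows that level to be above background, so these folds are point estimates of a lower bound and are not ranked. In T cells it was 3.34 ± 0.15 above vehicle at 2 h (2.98 to 3.70), or 10.2-fold, with rank 7 of 10112. At 5 h it was 2.14 ± 0.15 above vehicle (1.78 to 2.50), or 4.42-fold, with rank 3. The macrophage markers that T cells carried at 2 h were subtracted by taking a share of the macrophage arrays away from each T-cell array, an alternative chosen after seeing the data. At the median share over the 9 markers (2.18% and 0.375% of the signal in the arrays of 2 h), Rtp4 kept 11.43 and 10.95. At the share that Lyz2 alone gives (30.5% and 5.78%) it was 11.47 and 10.93. The macrophages subtracted read a mean of 11.29 at 2 h and these T cells 11.19, so the subtraction could move Rtp4 little.

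A gene was called when limma's adjusted p, over all genes tested in that comparison, was under 0.05. The genes called higher were 84 of 10531 (0.798%) in macrophages at 2 h and 88 (0.836%) at 5 h, and 28 of 10112 (0.277%) in T cells at 2 h and 2 (0.0198%) at 5 h. Rtp4 is in all 4 by its selection, and no other gene is at this threshold in these fits. In T cells at 5 h Ifit1 and Irf9 had a limma adjusted p of 0.0579, and other settings called 1 to 57 genes higher there. A further 21 genes were called in 3 of the 4 responses. With macrophage signal subtracted as above, T cells at 2 h had 24 of 10111 genes called higher at the median share. At the Lyz2 share 4 of 10214 were called higher and 26 lower, beside 28 higher and 1 lower without subtraction. Besides Rtp4, T cells at 5 h had a call for Neb, which encodes nebulin, a protein of muscle filaments, at 1.52 ± 0.11, and it was not among the genes tested in macrophages. With 1 array left out the counts were 34 (without vehicle array 1) to 121 (without IFNα array 2) in macrophages at 2 h, 29 to 38 at 5 h, and 0 (without vehicle array 1, with 276 at an unadjusted p under 0.05) to 599 (without IFNα array 2) in T cells at 2 h. Without any 1 of the 4 T-cell arrays of the comparison at 5 h, limma called no gene there (0, with 141 to 274 at an unadjusted p under 0.05), so Rtp4's place in all 4 responses rests on every one of these arrays.

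The genes just outside that selection were called in 3 responses and missed the threshold in T cells at 5 h. They are named in order of their smallest change, a choice made after their values were seen. Ifit1, which binds foreign RNA, was 4.86 and 4.34 above vehicle in macrophages at 2 h and 5 h and 5.24 and 2.61 in T cells, where its SE of 0.28 was larger than Rtp4's 0.15. Its smallest change, 2.61, exceeded Rtp4's 2.14. Usp18, the protease that damps type I interferon receptor signalling, was at 1.47 ± 0.27 in T cells at 5 h. Irf7, the transcription factor that amplifies interferon production, was at 1.11 ± 0.16 there. Xaf1, a pro-apoptotic interferon-stimulated gene, was at 1.02 ± 0.17 there. Ifi27l2a, another interferon-stimulated gene, was at 1.50 ± 0.19 there, and its smallest change was 0.99, in macrophages at 2 h.

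The KO arrays were not used in the selection and ask whether Rtp4 responded without Ifnar1. All 4 KO arrays lay below their own medians, so Rtp4 passed the filter of this fit only through the B10.Q arrays with IFNα, and in a fit of the KO arrays alone it was not tested. Its KO levels are in the same low range as vehicle macrophages. Rtp4 was 0.58 ± 0.25 log2 lower with IFNα than without (difference -0.58, SE, 95% interval -1.15 to -0.02, 0.67-fold, n = 2 each), in the direction opposite to B10.Q, and was not called (limma adjusted p = 1). In this comparison 0 of 10531 genes (0%) were called by limma, and 460 had an unadjusted p under 0.05. The size rests on KO array 2 without IFNα: without it the difference was -0.20, and without array 1 of that pair it was -0.97, with neither called. Without KO IFNα array 2, 1191 genes were called and Rtp4 was not (limma adjusted p = 0.151). Array 2 without IFNα exceeded array 1 by 0.76 for Rtp4, at percentile 99.9 of genes. Beside this, array 1 without IFNα had a mean of 5 neutrophil markers of 7.31, against 6.35 in array 2, and the B cell marker means given above. Their part in the result was not tested.

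As a description, the response at 2 h in KO macrophages was 5.14 ± 0.36 log2 below that in B10.Q macrophages (difference -5.14, interval -5.94 to -4.35). The B10.Q part of it was used in the selection, and its size rests on KO and vehicle levels in that low range. KO macrophages titled without IFNα differed from B10.Q macrophages with vehicle by 0.13 ± 0.25, KO minus B10.Q (-0.44 to 0.69). This difference changed sign, to -0.25, without KO array 2 titled without IFNα.

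The selection required a rise at both times but not which was larger, so the change between times was tested, on arrays that the selection had used. In T cells Rtp4 was lower at 5 h than at 2 h by 1.20 ± 0.15 (difference -1.20, interval -1.56 to -0.84, 0.435-fold), with no overlap of the arrays. It was not called (limma adjusted p = 0.165), where 1 of 10112 genes (0.00989%) was called in either direction and 996 had an unadjusted p under 0.05. Rtp4 was 20th from the lowest difference. Without T-cell array 1 of 2 h the difference was -0.96 and was called (limma adjusted p = 0.0059), and without array 2 it was -1.44 (limma adjusted p = 7.86e-05, with 1641 genes called). Without either array of 5 h it was not called (adjusted p = 0.945 and 0.956). The higher macrophage markers of the T-cell arrays of 2 h stand beside this difference. With macrophage signal subtracted it was -1.20 at the median share and -1.21 at the Lyz2 share. The subtraction could move Rtp4 little, as said above, and the part of that signal in the difference was not tested.

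In macrophages Rtp4 was 0.37 ± 0.25 higher at 5 h than at 2 h (interval -0.19 to 0.94), which was not called (limma adjusted p = 0.904). In that comparison 1 of 10531 genes (0.0095%) was called in either direction. Without macrophage array 2 of 2 h, the lower of its pair, the difference was 0.04, and without array 1 it was 0.71, with neither called.

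In mice given vehicle, Rtp4 was lower in macrophages than in T cells. The vehicle macrophages were 1.11 ± 0.19 below the T cells (difference -1.11, interval -1.53 to -0.70, n = 2 each), which was called (limma adjusted p = 0.000253). So were 6936 of 11161 genes (62.1%) in either direction, so a call in this comparison is common. The vehicle arrays were also part of the responses that chose Rtp4. The macrophage vehicle level was not shown to be above background, so the size of 1.11 is a point estimate of a lower bound.

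The response was larger in macrophages at 5 h, while at 2 h the difference was not called. Both responses compared were used to choose Rtp4. The selection fixed that each was a rise and not which was larger, so the p-values of these differences come from arrays already used and are not independent of the selection. At 5 h the response in macrophages exceeded that in T cells by 2.79 ± 0.27 (interval 2.20 to 3.38, at least 6.92-fold given the low vehicle level), which was called (limma adjusted p = 0.000716). Here 28 of 11161 genes (0.251%) were called in either direction, and 6 to 11 with 1 array left out, Rtp4 among them each time. At 2 h it exceeded that in T cells by 1.22 ± 0.27 (interval 0.63 to 1.80), a point estimate of a lower bound given the low vehicle level. This difference was not called (limma adjusted p = 0.305), with 3 genes (0.0269%) called in either direction. Without macrophage array 2 of 2 h this difference was 1.55 and was called (limma adjusted p = 0.0114). Leaving out 1 array moved the count of genes called to between 1 and 511, the highest without T-cell array 2 of 2 h. The T-cell arrays of 2 h carry the macrophage markers given above, and their Rtp4 levels after subtraction are those given with the responses. The difference between cell types at 2 h was not recomputed after subtraction. The macrophages thus had the lower vehicle level and, at 5 h, the higher level with IFNα, 11.67 against 9.99, whereas at 2 h the levels of both cell types overlapped.

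**Figure D2:**
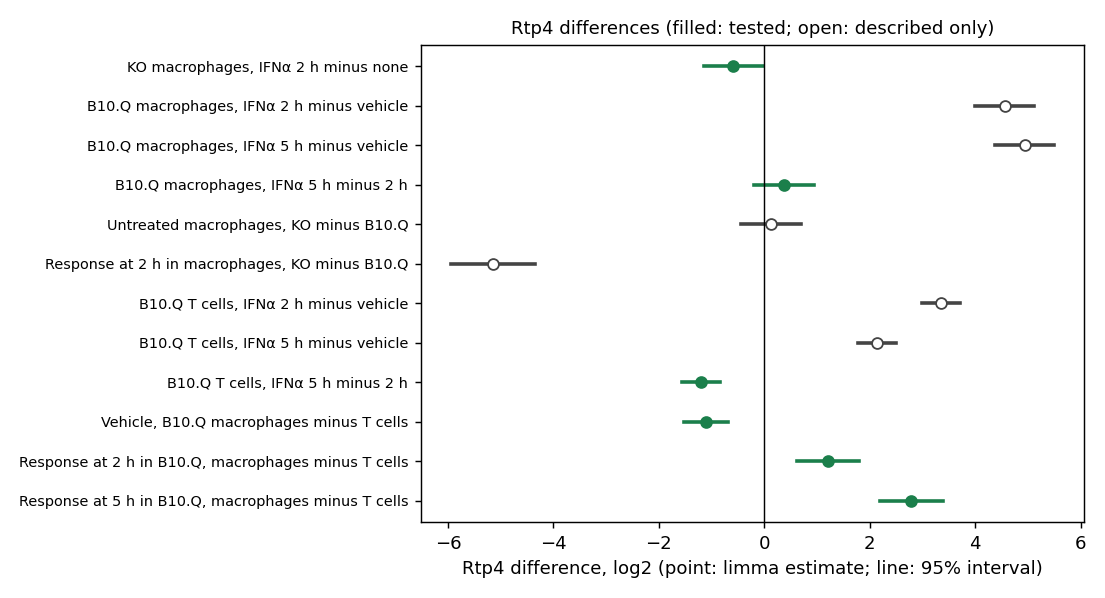
Log2 differences of Rtp4 (horizontal axis) in the 12 comparisons (rows), with points for limma's estimate and lines for its 95% interval. Filled points were tested and open points are described without a test. The row for untreated macrophages sets KO arrays titled without IFNα against B10.Q vehicle arrays. The 4 B10.Q responses lie between 2.14 and 4.93, and the KO difference is -0.58.

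By Pearson correlation of log2 levels over the 16 arrays, a description in which arrays of a group share their treatment, the genes most like Rtp4 were other interferon-stimulated genes. The median r over 11307 genes was -0.01, and 30 genes were over 0.9. The 8 highest were Irf7 (0.991), H2-T24, a nonclassical MHC class I gene (0.990), Xaf1 (0.980), Slfn5 (0.978) and Slfn8 (0.975), which are Schlafen family genes, Usp18 (0.966), Parp14, an ADP-ribosyltransferase (0.966), and Ddx60, a helicase linked to RNA sensing (0.964). All 8 lay less far above vehicle than Rtp4 in macrophages at both times. Nearest in size was Usp18, at 4.34 and 4.38 above vehicle in macrophages at 2 h and 5 h and at 3.43 and 1.47 in T cells. Irf7, the closest in pattern, was 2.70 and 2.83 above vehicle in macrophages at 2 h and 5 h, and 1.87 and 1.11 in T cells. Slfn5 was at 3.32 and 3.58 in macrophages and 1.97 and 0.93 in T cells.

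These 8 genes also lay lower in T cells at 5 h than at 2 h in 8 of 8 cases, with differences of -1.95 (Usp18) to -0.43 and 0 called. Between 5 h and 2 h in macrophages 5 of 8 were above 0, with values of -0.21 to 0.32 and none called. The response at 5 h was larger in macrophages than in T cells for 8 of 8, by 0.76 to 2.91, with 1 called, Xaf1 (1.58 ± 0.25, limma adjusted p = 0.0291). Usp18 had the widest gap of the 8, at 2.91 ± 0.61, and was not called (limma adjusted p = 0.106). At 2 h the excess in macrophages was 0.11 to 1.34, with none called. With vehicle all 8 read lower in macrophages, and 3 were called, Slfn5 (-1.0), Xaf1 (-0.97) and Slfn8 (-0.91), where 62.1% of all genes were called. The genes were picked for following Rtp4 on these same arrays, so like directions are part of the choice.

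In the KO arrays 7 of the 8 were lower with IFNα than without, with differences of -0.53 for Irf7 to 0.09 and 0 called. The median KO difference over all 10531 genes tested was -0.01. KO array 2 without IFNα lay above array 1 for all 8, with a median of 0.23, and with 0.63 for Xaf1 and 0.50 for Irf7, against 0.76 for Rtp4. The KO arrays were among the 16 arrays on which these 8 genes were picked, so like directions here are part of the choice too.

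Within the 10 macrophage arrays the 5 most like genes were H2-T24 (0.995), Irf7 (0.993), Helz2, a transcriptional coactivator helicase (0.993), Slfn8 (0.992) and Adar, the RNA-editing adenosine deaminase (0.992). Within the 6 T-cell arrays they were Irf9 (0.991), Nemp2 (0.990), Irf7 (0.989), the small GTPase Rab12 (0.989) and the secreted glycoprotein Lgals3bp (0.986). Nemp2 and Rab12 did not follow Rtp4 over all 16 arrays, with r of 0.20 and -0.02.

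**Figure D3:**
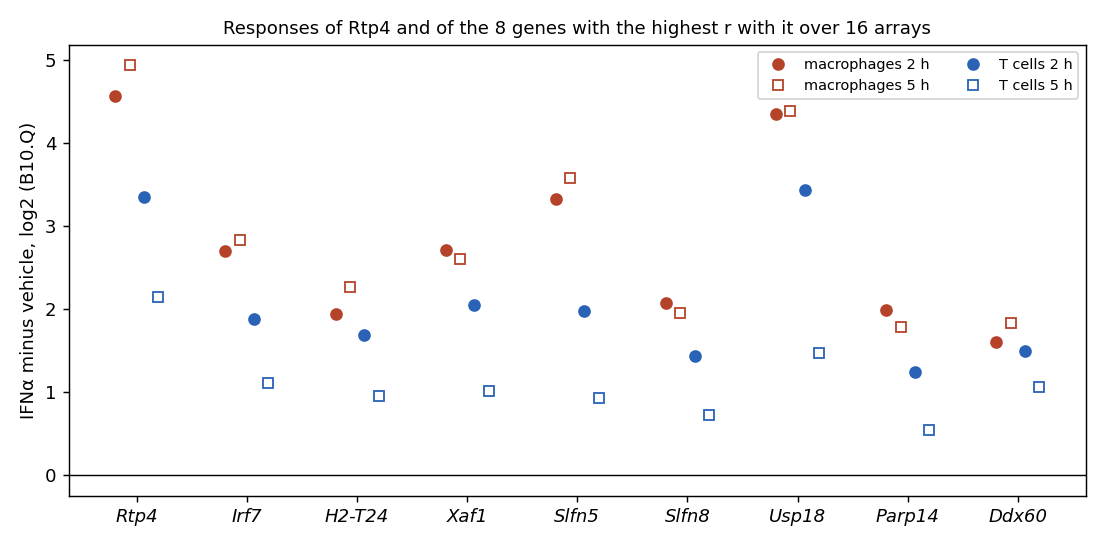
IFNα minus vehicle on the log2 scale (vertical axis) in the 4 B10.Q responses for Rtp4 and the 8 genes most like it (horizontal axis); circles are 2 h, squares 5 h, red macrophages and blue T cells. In every gene shown both macrophage values lie above both T-cell values.

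The other members of the family were low in every group. Rtp1 lay between 6.35 and 6.73, Rtp2 between 6.79 and 7.44 and Rtp3 between 6.47 and 6.90 over the 16 arrays, and 0 of 3 passed the filter on low values, which asks for at least 2 arrays of a fit above their own median. No difference was therefore tested for them. The related REEP proteins shape the endoplasmic reticulum, and some aid receptor transport. Of 6 REEP genes 5 were tested and 0 were called in any of the 4 B10.Q responses, where at most 0.836% of all genes were called higher, so that 0 of 5 says nothing particular of the family. Their differences had medians of 0.02 and 0.02 in macrophages at 2 h and 5 h and 0.05 and 0.03 in T cells, against medians over all genes of -0.06 and -0.01 in macrophages and -0.03 and 0.00 in T cells. The value farthest from 0 was Reep4 in T cells at 2 h, -0.32 ± 0.14. Reep1 lay between 6.02 and 6.48 and was not tested. Reep2 (7.39 to 8.05), Reep4 (9.56 to 10.28), Reep5 (9.30 to 10.01) and Reep6 (7.35 to 9.30) had their levels over all 16 arrays in these ranges. Reep3 lay between 9.20 and 11.87 over all arrays, and its vehicle level was 2.59 higher in macrophages than in T cells.

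The receptors that RTP4 is known to carry or that are related to them were mostly at low levels. Oprm1 (the mu opioid receptor, 6.68 to 6.97), Oprk1 (kappa, 5.41 to 5.90), Oprl1 (nociceptin, 6.54 to 7.11) and the cannabinoid receptor Cnr1 (5.87 to 6.24) did not pass the filter. Oprd1, the delta opioid receptor, lay between 7.53 and 8.12. It was tested in both cell types and was not called in any B10.Q response. Cnr2, the cannabinoid receptor of immune cells, lay between 6.28 and 7.71, and its response was tested in macrophages and not in T cells. It was at -0.43 ± 0.11 at 2 h in macrophages (limma adjusted p = 0.238). Its vehicle level was 0.31 ± 0.09 higher in macrophages than in T cells, a call shared by 62.1% of genes in either direction. KO macrophages titled without IFNα minus B10.Q with vehicle was -1.26 ± 0.11 for Cnr2, called lower (limma adjusted p = 0.000592) as were 29 of 10531 genes.

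On the TBK1 arm of sensors and kinases, 12 of 15 listed genes had a probe set and were tested. In macrophages 4 of the 12 rose at 2 h and 3 at 5 h, in T cells 2 rose at 2 h and 0 at 5 h, and 0 fell in any of these. Over all genes 0.798% and 0.836% were called higher in macrophages and 0.277% and 0.0198% in T cells, at 2 h and 5 h, so the 0 in T cells at 5 h carries no information on the list. In macrophages Ddx58 (the RNA sensor RIG-I) rose by 1.73 ± 0.20 at 2 h and 1.82 at 5 h, Ifih1 (the sensor MDA5) by 1.43 ± 0.23 and 1.52, and Dhx58 (LGP2, which modulates both) by 1.51 ± 0.26 and 2.00. In T cells at 2 h Ifih1 was at 1.66 ± 0.27 (limma adjusted p = 0.0709) and Ddx58 at 0.94 ± 0.15 (adjusted p = 0.0662), neither called. Trim25, the ubiquitin ligase that aids RIG-I, rose by 1.11 ± 0.15 in macrophages at 2 h and by 1.44 ± 0.13 in T cells at 2 h, when Dhx58 rose there by 1.74 ± 0.18. Tbk1 itself was at -0.16 and -0.01 in macrophages and 0.19 and 0.23 in T cells, and Irf3 at -0.20 and -0.02 in macrophages and 0.04 and -0.05 in T cells, none called. Azi2, an adaptor of TBK1, was at 0.42 ± 0.12 in macrophages at 2 h (limma adjusted p = 0.436) and at 0.03 and -0.03 in T cells at 2 h and 5 h, not called. The list's medians were 0.10 and 0.13 in macrophages and 0.04 and -0.04 in T cells beside the medians over all genes given above.

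In a list of 8 genes for the receptor, its kinases, ISGF3 and Irf7, 7 were tested. Stat2, Irf9 and Irf7 rose in macrophages at each time, Irf9 and Irf7 rose in T cells at 2 h, and 0 of the 7 were called in T cells at 5 h, beside the shares of all genes just given. Irf7, which is part of neither the receptor nor ISGF3, has its values above. Stat2 rose by 2.07 ± 0.26 and 1.87 in macrophages at 2 h and 5 h, and was at 1.03 ± 0.24 in T cells at 2 h, not called (limma adjusted p = 0.358). Irf9, the DNA-binding part of ISGF3, rose by 1.62 ± 0.20 and 1.54 ± 0.20 in macrophages and by 1.20 ± 0.09 in T cells at 2 h, and was at 0.82 in T cells at 5 h (limma adjusted p = 0.0579). Ifnar1 was at -0.15 and -0.19 in macrophages and -0.08 and -0.04 in T cells, not called. In KO macrophages its probe set read 10.12 with IFNα and 10.18 without, against 10.36 in B10.Q macrophages with vehicle. KO titled without IFNα minus B10.Q with vehicle was -0.18 ± 0.15, not called (limma adjusted p = 0.65). This probe set thus does not show the loss of Ifnar1, which is taken from the labels. Of 7 feedback genes tested, Usp18 was the 1 that rose in macrophages at 2 h and at 5 h and in T cells at 2 h. Socs1, which blocks JAK kinases, was at 0.56 ± 0.20 in macrophages at 2 h (limma adjusted p = 0.764), and its relative Socs3 was at 0.92 ± 0.23 in T cells at 5 h (adjusted p = 0.903).

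The genes beside Rtp4 on chromosome 16 were set against it next. Of the 5 genes on each side, all 10 had a probe set, 5 were tested (Rfc4, St6gal1, Sst, Bcl6 and Lpp) and 0 were called in any B10.Q response, where at most 0.836% of all genes were called higher, so that 0 of 5 shows nothing particular to these genes. Bcl6, a transcriptional repressor, was at 0.33 ± 0.12 in macrophages at 5 h (limma adjusted p = 0.851). Rfc4, a clamp loader subunit of DNA replication, was at -0.22 ± 0.26 and Lpp at 0.22 ± 0.10 in T cells, at 2 h and 5 h. Masp1, a protease of the lectin complement pathway and the gene that overlaps Rtp4, stayed between 6.43 and 6.86 on all 16 arrays. Adipoq (4.85 to 5.39) and Tprg (6.31 to 6.84) were also low throughout.

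**Figure D4:**
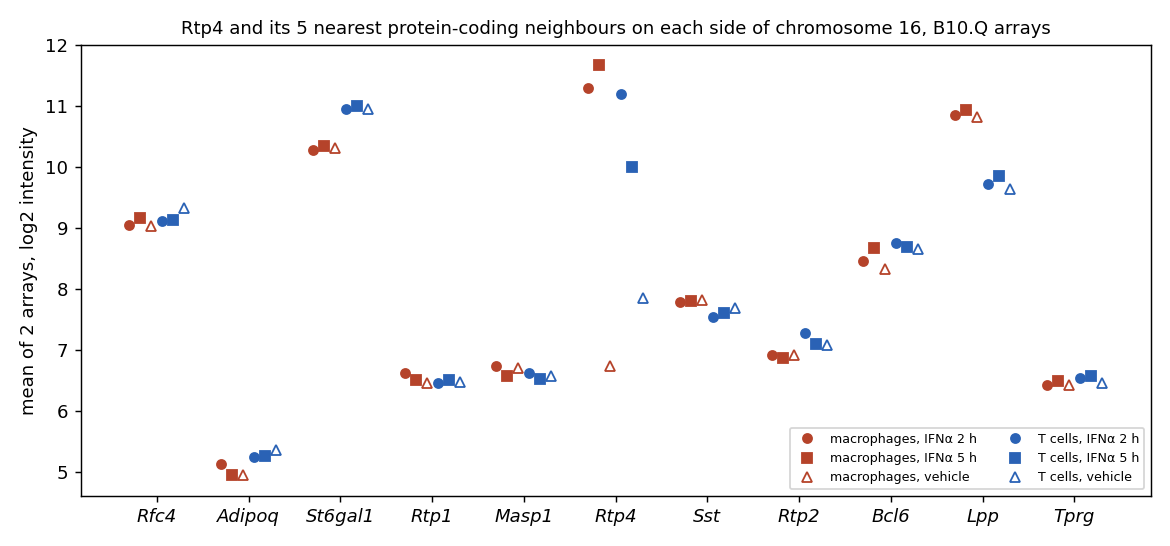
Mean log2 intensity of 2 arrays (vertical axis) in the 6 B10.Q groups for Rtp4 and its 5 neighbours on each side of chromosome 16, in gene order (horizontal axis). Rtp4 lies at 11.67 in macrophages at 5 h and at 6.73 with vehicle, and Masp1, which overlaps it, between 6.43 and 6.86 over all arrays.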

How the data were processed

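RNA of sorted cells was amplified with the Ambion WT Expression Kit and hybridised to Affymetrix Mouse Gene 1.0 ST arrays, per the labels' protocols. The authors' deposited values are intensities per probe set on a linear scale, made with RMA and Affymetrix Power Tools, per the submitters' processing notes. Versions, and whether all arrays were normalised together, are not given in the sources used here. Arrays give no read counts, so precision is set by how many arrays there are.

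Log2 of each intensity was taken with no further scaling. Of 24922 probe sets, 21425 carry 1 gene symbol, 1399 several and 2098 none. A gene is represented by its probe set with the highest mean. Genes with at least 2 arrays of a fit above their own array's median were tested by two-sided lmFit and eBayes (limma 3.58.1, R 4.3.3), in fits of the 10 macrophage, the 6 T-cell and the 12 B10.Q arrays, with Benjamini-Hochberg adjustment over all genes tested. The procedure was tested on simulated data. Rtp4 and the gene lists were chosen with earlier results of these data known.

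Named genes are the 8 most correlated with Rtp4 over 16 arrays, the 5 in each cell type, and of each list the called members and up to 3 more with the largest changes (all members of lists of 6 or fewer). A rule for 5 genes next to Rtp4 among those called in all 4 responses found no other gene, so genes called in 3 were named. Alternatives were another filter or none, quantile or median scaling, a trend and robust variance, every probe set, the replicate number as a block, fits of the compared groups or all arrays, leaving out each array, and the subtraction of macrophage signal.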

Additional observations from a re-analysis of the deposited data

Results flagged for a closer look

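The response of Rtp4 at 5 h was larger in B10.Q macrophages than in T cells by 2.79 ± 0.27 log2 (SE, n = 2 arrays per group). The difference between the cell types itself was called (limma adjusted p = 0.000716), on the arrays that had chosen Rtp4. The macrophage vehicle level was not shown to be above background, so this size is a point estimate of a lower bound. Both responses were used to choose Rtp4, which fixed that each was a rise but not which was larger, so this p-value is not independent of the choice. Groups of 2 arrays allow no check for an extreme array within a group.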

How the results depend on the processing

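Of 170 recomputed values 159 kept their direction and their side of the threshold, or moved by less than the spread, 3 newly passed the test, 7 moved and 1 changed sign. Only scaling, subtraction and leaving out an array could move the Rtp4 difference itself. The filter, variance, probe set, block and array-set alternatives could change its p-value alone. For comparisons described without a test, agreement under these was therefore fixed beforehand. Leaving out each array in turn gave the widest ranges (the array left alone in its group takes its spread from the other groups). The difference from vehicle was 4.22 to 4.89 in macrophages at 2 h, 4.88 to 4.99 at 5 h, 3.10 to 3.58 in T cells at 2 h and 2.08 to 2.21 at 5 h. The KO difference was -0.97 to -0.20, never called (adjusted p = 0.151 to 0.998 with limma). KO titled without IFNα minus B10.Q with vehicle was -0.25 to 0.51, with a change of sign without KO array 2 of that pair. For the response, KO minus B10.Q was -5.53 to -4.76. Between 5 h and 2 h it was 0.04 to 0.71 in macrophages and -1.44 to -0.96 in T cells, where leaving out array 1 or array 2 of 2 h made the call. Macrophages minus T cells was -1.18 to -1.05 with vehicle, 0.88 to 1.55 for the response at 2 h, called without macrophage array 2 of 2 h (1.55), and 2.72 to 2.86 at 5 h. The cause was not tested.

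Under the other alternatives the T-cell change between times was -1.21 to -1.19 (limma adjusted p = 0.095 to 0.619) and the cell-type difference at 5 h was 2.77 to 2.80, always called. Of the 8 genes most like Rtp4, 7 were shared with the ranking over group means, 4 with that over macrophage arrays and 1 with that over T-cell arrays. A fit of the compared groups alone gave Rtp4 no test in the KO difference, since it fell below the filter there. The same held for KO titled without IFNα against B10.Q with vehicle.

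Counts of genes called moved by over 1.5 times. Over left-out arrays they were 0 to 1191 in KO macrophages (1191 without KO IFNα array 2), 34 to 121 in macrophages at 2 h, 29 to 38 at 5 h, 0 to 599 in T cells at 2 h, 0 at 5 h, 1 to 5 and 0 to 1641 between the times in macrophages and T cells, and 1 to 511 and 6 to 11 for the response difference between cell types at 2 h and 5 h. With other settings they reached 11 in KO macrophages, 122 and 188 in macrophages at 2 h and 5 h and 40 between the times, 2 to 49 in T cells at 2 h, 57 at 5 h and 0 to 26 between the times, and 1 to 7 and 8 to 140 for the response differences.

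The replicate number as a block changed no call of Rtp4. Each group holds an array 1 and an array 2, so the block could not move the differences (4.56, 4.93, 3.34, 2.14 and -0.58), only their spread. Deviations of same-numbered arrays of 1 cell type and line correlated at -0.28 to 0.14 in 7 pairs, with 3 over 0.1. For B10.Q against KO macrophages it was -0.21 to 0.45 in 6 pairs, with 3 over 0.1. Across cell types it was -0.19 to 0.19 in 15 pairs, with 4 over 0.1. Macrophages and T cells of the same treatment had 0.16 at 2 h, -0.14 at 5 h and 0.15 with vehicle. These values do not settle whether same-numbered samples share animals, and the fits of both cell types treat the arrays as independent.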
